A study of Mus musculus with 15 samples.

Results

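Genes for the subunits of the 26S proteasome were followed in HSF1 ChIP-seq peak lists from mouse brown adipose tissue (BAT), the heat-producing fat depot. The 31 genes, fixed by symbol, are 7 alpha and 7 beta subunits of the core particle, 6 ATPases, 3 other base subunits and 8 lid subunits, out of 21887 protein-coding genes on the standard chromosomes. A gene was called bound in a library when a peak summit lay within 5000 bp of either of its ends. All of the symbols matched a RefSeq gene of GRCm38.p6.

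The peak lists come from 10 ChIP libraries in 5 groups of 2, made with the same antibody (Cell Signaling 4356) after fixation with 2 mM DSG for 25 min and 0.8% formaldehyde for 12 min. Wild type (WT) mice were kept at room temperature (RT), or exposed to cold for 40 min (a first pair of libraries) or for 4 h. A further WT pair at 40 min has titles that repeat the replicate numbers with a suffix (1.1 and 2.1), and 2 libraries are labelled TXNIP KO and 40 min of cold. TXNIP is an arrestin-like protein that binds thioredoxin. Strain, sex, age, the knockout allele, the cold temperature and whether the libraries of a pair come from separate animals are not stated in the labels, so the spread within a pair may be technical. Peak lists hold no expression values, so the tissue could not be checked against its marker genes.

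The proteasome degrades proteins tagged with ubiquitin. Its core is a barrel in which rings of beta subunits, some of them proteases, lie between rings of alpha subunits that gate the entrance. A regulatory particle caps the barrel: its base holds a ring of ATPases that unfold substrates, and its lid holds the deubiquitinase PSMD14. HSF1 is the factor that activates chaperone genes when proteins misfold, by binding heat shock elements, inverted repeats of GAA. In mammals the joint control of proteasome subunit genes is mainly attributed to NFE2L1 (NRF1), a factor that depends on DDI2 and NGLY1 for its processing, and in brown fat NFE2L1 is known for raising proteasome activity in the cold.

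The lists differ widely in length, and so does the number of genes of any kind that were called. RT libraries had 919 and 1269 peaks, the first 40 min pair 2287 and 1670, and 4 h libraries 123 and 351. The second 40 min pair had 12644 and 14583, and the knockout 10399 and 10633. The region between Hspd1 and Hspe1, which encode the mitochondrial chaperonin, marks the upper end of the scale, with fold enrichments over local background from 53.6 (4 h replicate 1) to 1296 (second pair replicate 1.1). Read depth is unknown, and folds and −log10 p are the authors' values per peak, from lists that were made separately, so values of different libraries are set side by side and not tested. No test was run on the counts of genes below.

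No proteasome subunit gene was bound in any of the 6 libraries of the RT, first 40 min and 4 h groups. Of the other protein-coding genes, 2.00% were bound in both libraries at RT, 3.14% in the first pair at 40 min and 0.366% at 4 h, rates at which a list of 31 genes would hold few or none. The second 40 min pair had 6 of 31 members bound in both libraries (19.4%), beside 21.0% of the other genes. The knockout had 3 of 31 (9.68%), beside 16.0%. These shares are near or below the background of their groups. In at least 1 library of a group, 9 members (29.0%) were bound in the second pair and 12 (38.7%) in the knockout, beside 31.0% and 24.4% of the other genes. The other genes reached 3.02% at RT, 4.96% in the first pair and 0.782% at 4 h by that measure, where no member was bound. In single libraries of the long lists, 8 and 7 members were bound in the second pair (25.8% and 22.6%, other genes 24.7% and 27.4%), and 7 and 8 in the knockout (22.6% and 25.8%, other genes 19.6% and 20.8%). The 6 shorter lists, with 0 members each, had 2.21% and 2.81% of the other genes bound at RT, 4.61% and 3.48% in the first pair, and 0.366% and 0.782% at 4 h.

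**Figure D1:**
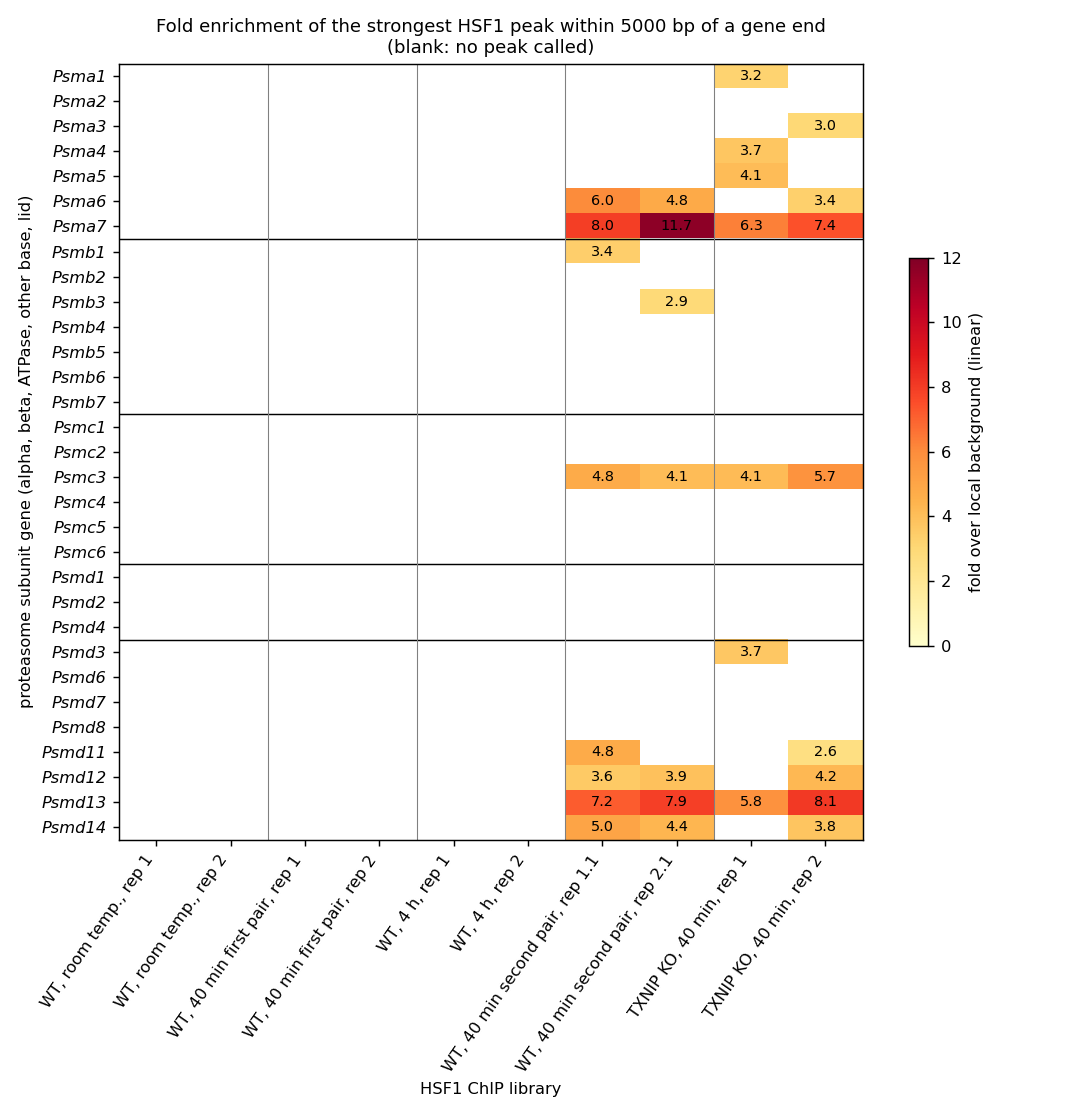
Rows are the 31 subunit genes by role, columns the 10 HSF1 ChIP libraries, and each number is the fold over local background of the strongest peak within 5000 bp of a gene end (blank: no peak called). The 6 columns of the RT, first 40 min and 4 h groups are empty, and the values in the other columns run from 2.6 to 11.7.

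Counts of bound members by role are small. Of the other protein-coding genes, 21.0% were bound in both libraries of the second pair and 16.0% in the knockout. In the second pair, 2 of 7 alpha genes (Psma6, Psma7), 0 of 7 beta genes, 1 of 6 ATPase genes (Psmc3), 0 of 3 other base genes and 3 of 8 lid genes (Psmd12, Psmd13, Psmd14) were bound in both libraries. In the knockout, 1 alpha gene (Psma7), 1 ATPase gene (Psmc3) and 1 lid gene (Psmd13) were. Thus Psma7, Psmc3 and Psmd13 were the members bound in all 4 libraries of the long lists. Psma6, Psmd12 and Psmd14 were bound in 3 of these 4, and knockout replicate 1 lacked all of them. The counts over the 4 libraries have no share of the other genes beside them.

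The strongest peak at a core gene lay inside Psma7, which encodes an alpha subunit (chromosome 2, 180036367 to 180042464, minus strand). Its folds were 7.96 and 11.7 in the second pair, with knockout values of 6.29 and 7.45. The summit lay 1654 to 1728 bp downstream of the gene start in the 4 libraries. It ranked at 32.0% and 19.3% from the top of the second pair lists and at 39.3% and 29.9% of the knockout lists. The nearest end of the neighbouring Ss18l1 was 1673 to 1747 bp from these summits, so the peak is about as close to one gene as to the other. A weaker peak 241 and 337 bp inside Psma7 was called in the second pair (folds 3.58 and 3.38) and in neither knockout library.

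Psma6, another alpha subunit gene (chromosome 12, 55384222 to 55418459, plus strand), held the most sites. In the second pair a peak lay 456 and 486 bp inside the gene, with folds of 6.01 and 4.80, and no counterpart was called in the knockout. Peaks at 3762 bp in replicate 2.1 (fold 3.26) and at 3107 bp in knockout replicate 2 (fold 3.36) were each called in 1 library. These peaks did not overlap. Further in, beyond the 5000 bp window, a peak 5412 to 5507 bp from the lower end was called in all 4 long lists, with folds of 7.57 and 7.55 in the second pair and, in the knockout, 6.43 and 6.72. The same place gave the sole summit inside any subunit gene among the 6 shorter lists, in first pair replicate 1, at 5570 bp with a fold of 4.56 and rank 1953 of 2287. A further internal peak, 14423 to 14574 bp from the lower end, was also called in all 4 long lists (folds 4.81 and 5.83, then 6.43 and 4.54). It lies at a second annotated start of Psma6, at position 55398825, with summits 29 and 180 bp upstream of that start in the second pair and 114 and 65 bp upstream in the knockout.

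That second start of Psma6 is shown because a summit of each of the 4 long lists lies within 180 bp of it, although it is too far from the gene's outer ends to count under the rule. The window runs from 250 bases before the start to 30 after it, in GRCm38.p6 from RefSeq (chr12:55398575-55398854, plus strand). Capitals, here and below, mark any 2-unit heat shock element (GAANNTTC or TTCNNGAA), antioxidant element (TGACNNNGC or its complement, the kind of site NFE2L1 binds) or CCAAT box (CCAAT or ATTGG), searched on both strands. No letter is in capitals here, since the window holds none of these.
Psma6, second start: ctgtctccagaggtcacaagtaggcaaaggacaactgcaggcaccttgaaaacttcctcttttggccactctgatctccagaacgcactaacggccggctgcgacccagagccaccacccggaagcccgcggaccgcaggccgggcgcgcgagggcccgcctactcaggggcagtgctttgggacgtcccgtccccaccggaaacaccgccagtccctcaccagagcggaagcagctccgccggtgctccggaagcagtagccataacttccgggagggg

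The other alpha genes were bound in at most 1 library, each time in the knockout. Psma4 had a summit 64 bp before its start in knockout replicate 1 (fold 3.73), and Psma5 had one 619 bp inside the gene in the same library (fold 4.11). Psma1 entered in replicate 1 with a summit 4981 bp from the gene, just inside the window, and a fold of 3.20. Psma3 had a peak 588 bp before its start in replicate 2 (fold 2.96), and Psma2 had none. Just outside the window, besides Psma6, a summit lay inside Psma3, 5722 bp from its nearer end, in second pair replicate 2.1. The ranks of these 4 knockout peaks ran from 79.2% to 98.4% from the top of their lists, among the weak ones.

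Beta subunits, which carry the proteolytic sites, had peaks in single libraries of the second pair and in none of the knockout. Psmb1 had a summit 61 bp inside its higher end in replicate 1.1, with a fold of 3.38 and a rank at 93.1%. The peak counted for Psmb3 in replicate 2.1 (fold 2.92) lay 3509 bp before its start and nearer to Pcgf2, 2509 bp away. The genes of the catalytic subunits with trypsin-like and chymotrypsin-like activity, Psmb7 and Psmb5, and that of the caspase-like subunit, Psmb6, had no peak within the window in any library. Psmb2 and Psmb4 had none either.

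Among the 6 ATPase genes, Psmc3 was bound in all 4 long lists, and Psmc1, Psmc2, Psmc4, Psmc5 and Psmc6 had no peak within the window in any of the 10 libraries. Psmc3 (chromosome 2, 91054016 to 91059438) had folds of 4.78 and 4.12 in the second pair and, in the knockout, 4.15 and 5.73. The summits lay 75, 97, 26 and 128 bp inside the end of the gene at the lower coordinate. Ranks were 62.3% and 70.1% from the top in the second pair, with knockout ranks of 80.7% and 49.8%, so the peaks stood in the middle and lower parts of the lists. The remaining base genes, Psmd1 and Psmd2, which encode the large scaffold subunits, and Psmd4, a ubiquitin receptor gene, had no peak within the window in any library.

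Lid genes included the members with summits closest to a start. Psmd12 (chromosome 11, 107479528 to 107498036, plus strand) had summits 8 and 12 bp after its start in the second pair, with folds of 3.58 and 3.94, and 93 bp before it in knockout replicate 2, with a fold of 4.24. Psmd14, the deubiquitinase gene (chromosome 2, 61711694 to 61800376, plus strand), had summits 44 and 52 bp after its start in the second pair (folds 5.02 and 4.36) and 134 bp after it in knockout replicate 2 (fold 3.75). No peak was called at either gene in knockout replicate 1. The nearest other protein-coding gene end was 8715 bp or more from the Psmd12 summits and 57567 bp or more from the Psmd14 summits, so no other gene end competes for these peaks. The peaks were weak, with ranks from 72.8% to 88.4% from the top for Psmd12 and from 57.0% to 84.7% for Psmd14.

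The starts of Psmd12 and Psmd14 are shown because the second pair summits lie within 52 bp of the annotated start there, beside the start of Hspe1 from the strongest HSF1 region. The windows are chr11:107479278-107479557, chr2:61711444-61711723 and chr1:55087898-55088177, all on the plus strand, with the gene start after base 250. The Psmd12 window has an antioxidant element 247 bases before the start and the Psmd14 window has CCAAT boxes 159 bases before it and at 4 and 7 bases after it, the latter in overlap on opposite strands. Neither holds a 2-unit heat shock element. The Hspe1 window holds 3 overlapping ones, starting 89, 84 and 79 bases before the gene start.
Psmd12: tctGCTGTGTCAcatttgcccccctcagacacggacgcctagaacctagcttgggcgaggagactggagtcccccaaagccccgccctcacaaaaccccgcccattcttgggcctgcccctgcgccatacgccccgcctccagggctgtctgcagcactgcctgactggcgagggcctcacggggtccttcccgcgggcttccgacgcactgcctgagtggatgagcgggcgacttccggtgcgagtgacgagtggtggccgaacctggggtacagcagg
Psmd14: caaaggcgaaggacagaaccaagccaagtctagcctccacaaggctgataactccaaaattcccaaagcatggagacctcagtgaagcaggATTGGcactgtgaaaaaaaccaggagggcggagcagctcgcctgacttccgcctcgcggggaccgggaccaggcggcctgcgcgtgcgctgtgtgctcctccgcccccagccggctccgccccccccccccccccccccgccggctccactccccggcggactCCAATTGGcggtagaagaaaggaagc
Hspe1: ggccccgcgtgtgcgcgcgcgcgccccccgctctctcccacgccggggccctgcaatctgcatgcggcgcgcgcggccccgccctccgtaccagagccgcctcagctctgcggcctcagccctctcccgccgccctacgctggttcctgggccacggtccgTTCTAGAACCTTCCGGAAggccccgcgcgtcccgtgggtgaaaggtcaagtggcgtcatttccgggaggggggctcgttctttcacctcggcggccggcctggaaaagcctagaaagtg

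The lid gene with the strongest peaks, Psmd13 (chromosome 7, 140882394 to 140898642, plus strand), owes its call to a site beyond its far end. Folds were 7.17 and 7.89 in the second pair and, in the knockout, 5.81 and 8.10. The summits lay 4318 to 4389 bp from the end of Psmd13 and 2514 to 2585 bp from Cox8b, which encodes a cytochrome c oxidase subunit of muscle and brown fat. The peak of Psmd11 in second pair replicate 1.1 and knockout replicate 2 (folds 4.78 and 2.57) likewise lay nearer to another gene, Cdk5r1, at 281 and 381 bp. Psmd3 had a single peak 208 bp inside its lower end in knockout replicate 1 (fold 3.70), and Psmd6, Psmd7 and Psmd8 had no peak within the window.

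**Figure D2:**
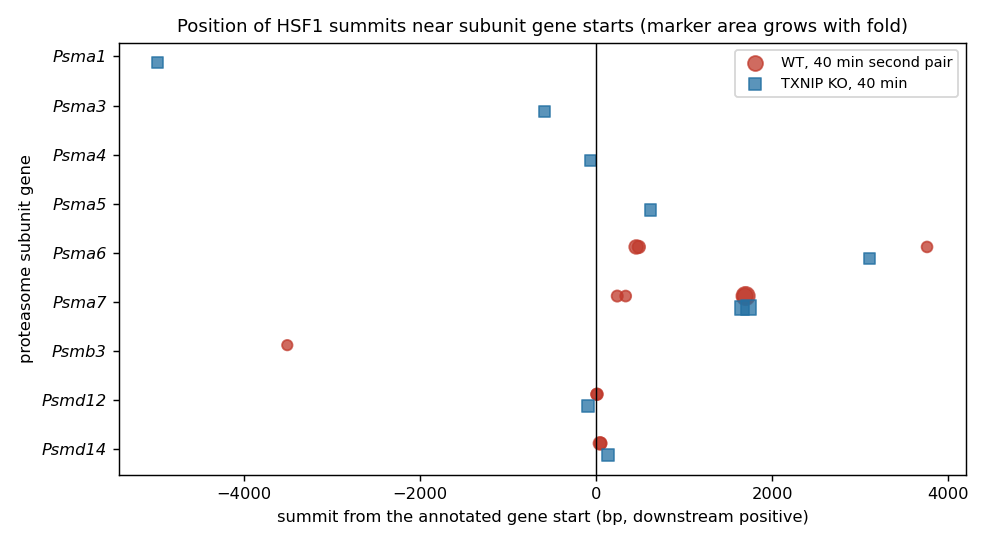
Each marker is 1 HSF1 summit, placed by its distance in bp from the annotated start of the subunit gene, with circles for the second WT 40 min pair, squares for the knockout and marker area growing with fold. Psmd12 and Psmd14 summits sit at the start, from 93 bp before it to 134 bp after it, while the 4 strongest Psma7 summits sit 1654 to 1728 bp inside the gene. Psmb1, Psmc3 and Psmd3, whose strand was not in the promoter table, and the peaks beyond the far ends of Psmd11 and Psmd13 are not drawn.

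Across the 10 lists, 33 peak assignments to 14 members were made, and the remaining 17 members (54.8%) had no peak in any library, beside 66.7% of the other genes. The member's own end was the nearest protein-coding gene end for 26 of the 33. Folds ran from 2.57 to 11.7 with a median of 4.15, 24 of the 33 stood in the weaker 50% of their list, and 0 stood in the strongest 10%. These counts take in single-library and secondary peaks and have no share of the other genes beside them. For members bound in both libraries, the median rank of the best peak was 50.6% and 57.9% in the second pair. The other genes bound in both had 45.9% and 40.0% there. In the knockout the members had 53.4% and 32.2%, beside 40.3% and 39.4%. With each peak assigned to its nearest gene end alone, 5 members in the second pair (16.1%, other genes 16.6%) and 2 in the knockout (6.45%, other genes 12.5%) were bound in both libraries. Within 1000 bp of an end the counts were 5 (16.1%, other genes 13.6%) and 1 (3.23%, other genes 9.70%). At RT, in the first pair and at 4 h both rules gave 0 members, beside 1.51%, 2.42% and 0.275% of the other genes by nearest end and 1.19%, 1.69% and 0.265% within 1000 bp. Both rules can only drop calls, so the 0 members there were fixed in advance.

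Most members bound in the knockout were bound in 1 library of the pair. Of 12 members bound in at least 1 knockout library, 3 were bound in both (25.0%), beside 65.7% of 5330 other genes. In the second pair it was 6 of 9 (66.7%), beside 67.8% of 6777. Over all member peaks, single-library ones included, the median rank was 80.7% and 78.7% from the top in the knockout libraries. In the second pair it was 61.3% and 70.1%. The part of rank in this count was not tested, nor was the difference between the groups.

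By the same rule, the chaperonin genes and Ubb stood high in the long lists. All 8 genes of the cytosolic chaperonin TRiC were bound in both libraries at RT, in both 40 min pairs and in the knockout, and 3 of 8 were at 4 h. In the long lists the strongest peak of each TRiC gene had a fold of 30.1 to 335 and a rank within the top 5.50%. Ranks in the shorter lists ran from 1.58% to 47.6% at RT, 1.22% to 34.1% in the first pair and 16.0% to 74.0% at 4 h. Ubb, a polyubiquitin gene that supplies the tag the proteasome reads, was bound in all 10 libraries. Its folds were 47.9 and 46.5 at RT, then 64.5 and 42.6 after 40 min in the first pair, and 7.35 and 13.6 after 4 h. They were 215 and 218 in the second pair, with knockout values of 186 and 175. Cytosolic ribosomal protein genes (81) are another large set of co-regulated housekeeping genes. Of these, 28.4% were bound in both libraries of the second pair and 27.2% in the knockout. Protein-coding genes outside the subunit list had 21.0% and 16.0%. The ribosomal share was 2.47% at RT, 6.17% in the first pair and 0 at 4 h, beside 2.00%, 3.14% and 0.366%. These lists were not tested against the subunit genes.

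**Figure D3:**
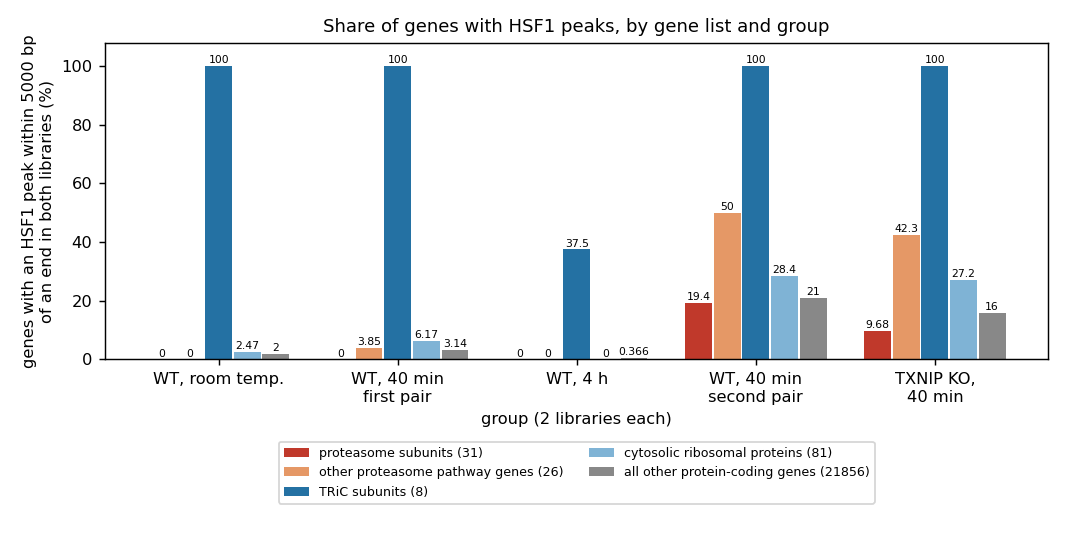
Bars give the percentage of genes of each list with an HSF1 peak within 5000 bp of an end in both libraries of a group. Proteasome subunits are at 0 in the RT, first 40 min and 4 h groups and at 19.4% and 9.68% in the others, where all other genes are at 21.0% and 16.0%, while TRiC is at 100% outside 4 h.

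**Figure D4:**
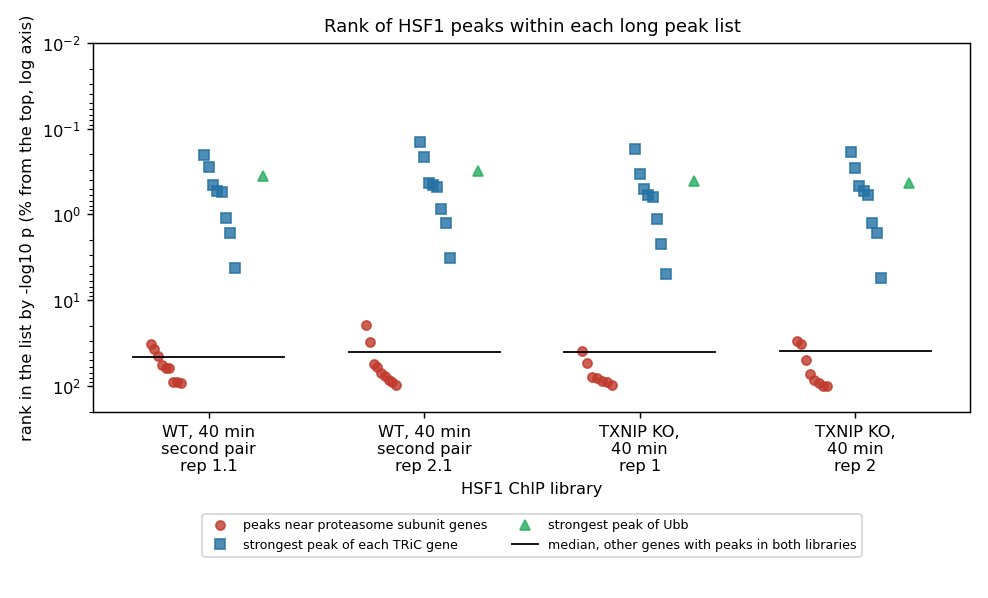
Each marker is a peak's rank by −log10 p as a percentage from the top of its list (log axis, strongest at the top), for the 4 long lists, with a black line at the median of the other genes bound in both libraries. Peaks near subunit genes lie between 19.3% and 99.9%, below every TRiC gene and Ubb. Subunit markers are all peaks in the window, those called in a single library included. The line, TRiC and Ubb take the strongest peak of each gene, so they are not the same measure as the subunit markers.

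Among 26 other genes of the proteasome pathway, each of the 4 regulators of subunit genes was bound in both long-list groups. Of the 26, 13 (50%) were bound in both libraries of the second pair, beside 21.0% of the protein-coding genes outside the subunit list. In the knockout it was 11 (42.3%), beside 16.0%. In the first 40 min pair 1 (3.85%) was bound, beside 3.14%, and 0 at RT and at 4 h, beside 2.00% and 0.366%. The difference from the 31 subunit genes was not tested. The regulators are Nfe2l1, the related Nfe2l2, Ddi2 and Ngly1. Ddi2, the protease that processes NFE2L1, was the one bound in the first 40 min pair. Its summit 1346 and 1347 bp inside the gene had folds of 6.04 and 6.40 there, and at nearly the same place 20.5 and 19.7 in the second pair and, in the knockout, 15.1 and 17.6. Nfe2l1 itself had folds of 7.97 and 6.51 in the second pair and, in the knockout, 8.92 and 8.89, with summits 606 to 645 bp before its start. The best folds of Nfe2l2 were 5.57 and 6.52 in the second pair and, in the knockout, 2.85 (rank 98.0%) and 4.10. Those of Ngly1 were 4.58 and 4.15, then 6.02 and 3.16, with Oxsm 162 to 474 bp from the summits. In knockout replicate 2 the Ngly1 peak ranked at 96.2% and lay nearer to Oxsm.

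Among the activators of the core, Psme4 and Psme3 were bound in all 4 long lists. Psme4, which encodes the PA200 activator, had folds of 11.9 and 13.9 in the second pair and, in the knockout, 9.54 and 11.7, and its summits lay 614 to 628 bp inside the gene. Psme3, which encodes PA28 gamma, had folds of 7.57 and 12.2, then 10.4 and 9.84, at 104 to 165 bp before its start. Psmf1, an inhibitor gene, was bound in both knockout libraries (5.19 and 4.15) and in second pair replicate 2.1 (4.65). Psme1 had no peak in any library, and Psme2 had 1 in knockout replicate 2, at 94 bp from Rnf31.

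The immunoproteasome subunit genes Psmb8 and Psmb9 had, in all 4 long lists, peaks that lay nearer to the antigen transporter genes. At Psmb9 the folds were 9.36 and 10.5 in the second pair and, in the knockout, 7.88 and 6.32, with summits 269 to 364 bp before its start and 43 to 138 bp from Tap1. The peak shared by all 4 libraries at Psmb8 lay 57 to 127 bp from Tap2. A further weak peak lay 142 bp before the start of Psmb8 in second pair replicate 2.1 (fold 2.92). Psmb10 was bound in both second pair libraries, with folds of 3.67 and 3.60, and in knockout replicate 2. Among assembly factors, Psmd5 was bound in all 4 long lists (5.77 and 7.20, then 5.60 and 5.33) and Pomp in both second pair libraries (3.14 and 3.81) and knockout replicate 2 (4.74). The ubiquitin receptor gene Adrm1 was bound in all 4 and Sem1, a small lid subunit gene, in both libraries of the second pair.

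Comparisons along the time course gave no subunit gene that changed. From RT to the first 40 min pair, 0 of 31 members were gained (bound in both later libraries and neither earlier one), beside 0.631% of the other genes, and 0 were lost, beside 0.00915%. From RT to 4 h 0 were gained and 0 lost, beside 0 and 1.29% of the other genes. From the first 40 min pair to 4 h, 0 were gained and 0 lost, beside 0.00458% and 2.38%. Since no member was bound in any of these 6 libraries, none could be gained or lost between them, and these counts of 0 were fixed in advance.

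Between the second pair and the knockout, 0 members were gained and 0 lost, beside 0.302% and 2.68% of the other genes. The 3 members bound in the second pair alone by the rule of both libraries, Psma6, Psmd12 and Psmd14, each had a peak in knockout replicate 2. With knockout replicate 2 left out, 4 members were gained and 3 lost, beside 1.16% and 4.71% of the other genes. With knockout replicate 1 left out, 1 was gained and 0 lost, beside 1.40% and 4.33%. With replicate 1.1 or 2.1 of the second pair left out, 1 was lost, beside 6.50% or 5.06%. Between the WT pairs, both at 40 min of cold, 6 members were gained in the second, beside 16.1% of the other genes, and 0 were lost, beside 0.0137%. The pairs share genotype, treatment and antibody in the labels and differ in list length, whose part in this count was not tested. With the 123 strongest peaks of each list, 0 members and 0% of the other genes were gained. The best-placed member peak was rank 2817 of 14583 (Psma7, second pair replicate 2.1), so the count of members at that cut was fixed in advance.

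The other genes with second pair folds like those of the members were also rarely called in the shorter lists. Taking for each gene bound in both second pair libraries the lower of its best folds, the 6 members lay between 3.58 and 7.96, a range that held 2388 of the 4595 other bound genes. Of those 2388, 1 was bound in both libraries at RT, 0 in the first pair at 40 min and 1 at 4 h. Of the 1501 genes above that range, 28.8% were bound at RT, 45.5% in the first pair at 40 min and 5.20% at 4 h. Taken from the knockout, the members' range was 4.15 to 6.29 and held 960 of 3502 other bound genes. Of those 960, 1 was bound at RT, 2 in the first pair and 0 at 4 h. Above the knockout range were 1710 genes, with 25.3%, 39.8% and 4.56% bound in the same groups. Median folds of all peaks in the shorter lists were 6.64 to 7.94. These are not on the scale of the long lists. The Ddi2 peak, for instance, had folds of 6.04 and 6.40 in the first pair and 20.5 and 19.7 in the second. A missing call does not separate an unoccupied site from an undetected one, and detection was not tested. This comparison was chosen after the values were seen.

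Distances to the closest summit need no window. The closest summit to any member end was 30670 and 19190 bp away at RT, 5570 and 19247 bp in the first 40 min pair, and 306579 and 13226 bp at 4 h. The median over the 31 members was 359930 and 333501 bp at RT, beside 760850 and 545108 bp over the other genes. In the first 40 min pair the members' medians were 228573 and 326392 bp, beside 275657 and 396289 bp. At 4 h the order differed between libraries, with 8633081 bp beside 6370281 bp in replicate 1 and 1248150 bp beside 2042625 bp in replicate 2. In the long lists the medians were 20676 and 30152 bp in the second pair, with knockout medians of 32637 and 30956 bp, beside 42728 and 35513 bp, then 59093 and 58021 bp, over the other genes.

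Gene starts were searched for the letters of known elements. The RefSeq promoter table (GRCm38.p6, 250 bases before to 50 after each start) matched 25 of the 31 members with 27 starts. It held no entry for Psmb1, Psmb2, Psmb7, Psmc3, Psmd3 and Psmd7. A 3-unit heat shock element, in which GAA and TTC alternate in 3 units with 2 free bases between them, was in 0 of the 27, beside 0.518% of 21236 starts of other protein-coding genes. A 2-unit element was in 2 (7.41%, at Psmb5 and Psmd4, neither bound), beside 13.7%. The table's 9 starts of 7 TRiC genes held 0 with 3 units and 3 with 2 (33.3%). The antioxidant element was in 4 of the 27 (14.8%, at Psmb5, Psmb6, Psmc6 and Psmd12), beside 13.0%, and a CCAAT box in 10 (37.0%), beside 38.2%. A match is a description of letters, not a site.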

How the data were processed

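HSF1 ChIP-seq of mouse BAT was analysed from 10 lists of narrow peaks that the authors deposited, 1 per library and not pooled. No file of the 5 inputs was used, and 1 input, whose title and treatment label differ, was left unassigned. MACS2 2.2.7.1, BWA 0.7.17, deepTools 3.4.3, Trim Galore 0.6.0 and SAMtools are named, per the submitters' processing notes, with build GRCm38.p6 (mm10). Filters, and the input behind each library, were not stated in the labels. Per peak, the deposited fold is a linear ratio of the signal to the local background, and −log10 p and −log10 q are the authors' values. Chromosomes 1 to 19, X and Y were kept (47 peaks on other sequences were dropped), peaks were ranked by −log10 p, and summits were assigned to every protein-coding gene (RefSeq table, GRCm38.p6) with an end within 5000 bp. Strand and starts come from the RefSeq promoter table. Assignment (Python 3.11.15, pandas 2.3.3) was tested on simulated peaks. Counts of members stand beside all other genes, without a test. Values are given in every library for members bound in both libraries of a group, and by name for the other pathway genes bound so. Members, lists and rules were chosen with earlier results of these data known. Some planned comparator genes are not reported here.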

Additional observations from a re-analysis of the deposited data

How the results depend on the processing

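No subunit gene was bound in both libraries of the RT, first 40 min or 4 h groups under any of the alternatives run, namely windows of 1000 and 10000 bp, gene bodies included, nearest gene only, −log10 q of at least 5, equal list lengths, overlapping peaks required, or 1 library standing for its group. As no member was bound in any library of these groups, only the 10000 bp window and gene bodies could have added one. The result of the others was fixed in advance. With the 123 strongest peaks of each library, the length of the shortest list, 0 members were bound in the second pair and 0 in the knockout (other genes 0.430% and 0.448%), and 0 were gained between the WT pairs (0%). No member peak stood above rank 2817 of its list, so these member counts could not differ from 0. In the knockout, 1 member was bound within 1000 bp (Psmc3; other genes 9.70%) and 7 within 10000 bp (20.6%), and 7 to 8 were with 1 library standing for the group (19.6% to 20.8%). From the second pair to the knockout, 1 was gained within 10000 bp (Psma1; other genes 0.329%), and 2 were lost within 1000 bp (Psma6, Psma7; 2.26%) and 2 at −log10 q of at least 5 (Psma6, Psmd14; 1.91%). With 1 library left out, 0 to 4 were gained (0.618% to 1.40%) and 0 to 3 lost (4.33% to 6.50%), the most members of each without knockout replicate 2. With 2 heat shock units in place of 3, 2 promoters of members matched. The other alternatives stayed within 1.5 times the main count. No paired analysis was possible because these counts come from no test across samples. Lists without read counts limit what can be called absent.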
